A study of Homo sapiens with 20 samples.

Results

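The amino acid transporters described here are the genes named SLC1A, SLC3A, SLC6A, SLC7A, SLC36A, SLC38A or SLC43A with a number. They were taken by name from the deposited count tables, in which 59 of 23368 genes matched. The libraries came from Panc1, a pancreatic ductal carcinoma cell line, and A549, a lung adenocarcinoma cell line. The labels list both as immortalized with SV40 large T, an entry that was not tested here. Each line was measured with a control siRNA (siCont), with TGFβ (TGFβ group, whose label names no siRNA), with an siRNA against KLF10 (siKLF10), and with both (siKLF10+TGFβ). Whether the TGFβ group also received the control siRNA is therefore not known. In comparisons with that group, a difference in transfection cannot be told apart from the treatment. There were 3 libraries a group in Panc1, lettered A to C, and 2 a group in A549, A and B, making 20 in all. Per the labels' protocols the TGFβ dose was 5 ng/ml, cells were treated for 72 h, and poly(A) RNA was sequenced. The series title places KLF10 as a negative feedback on epithelial-to-mesenchymal transition driven by TGFβ. The labels do not say whether a group's libraries are separate cultures. The p-values therefore rest on library-to-library spread, part or all of which may be technical. Changes are in RNA level, and less RNA per cell cannot be told apart from fewer cells that carry it.

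Transporters of these families move amino acids and related small molecules across membranes, some by coupling to sodium, chloride or protons and some by obligatory exchange. SLC7A5 (LAT1), which brings in large neutral amino acids such as leucine, and SLC7A11 (xCT), which trades glutamate for cystine, work only when bound to the heavy chain SLC3A2. SLC1A5, SLC38A1 and SLC38A2 carry glutamine and other small neutral amino acids, and SLC7A1 carries arginine and lysine. In tumour cells these genes are known for feeding protein synthesis, glutathione production and mTORC1 signalling, and many of them are targets of the stress-responsive transcription factor ATF4.

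Of the 59 transporters, 31 had enough counts for testing in Panc1, 31 in A549, 25 in both lines and 37 in at least 1 line. No count was found in any library for 9 of them: SLC1A6, SLC6A5, SLC6A7, SLC6A18, SLC7A4, SLC7A13, SLC7A14, SLC36A3 and SLC38A8. The other 13 untested transporters, among them the neurotransmitter carriers SLC6A2, SLC6A3 and SLC6A4, stayed at or below 0.89 CPM in every library. CPM is edgeR's library-size-scaled gene count, with TMM scaling done within each line. With 3 counts as the floor, a transporter listed at 0 could still be present at up to 0.162 to 0.445 CPM, depending on library depth, and this covers counting error only. Counts assigned to genes ranged from 11152625 to 15571367 a library in Panc1 and from 6846761 to 19070551 in A549. Transporters took 0.232% to 0.257% of gene counts in Panc1. In A549 they took 0.518% to 0.538% in the siCont and TGFβ libraries, and 0.595% to 0.678% in those labelled siKLF10 or siKLF10+TGFβ, so the ranges did not overlap.

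The silenced gene itself behaved differently in the 2 lines. KLF10, a transcription factor induced by TGFβ, stood at 140.1, 137 and 130.2 CPM in Panc1 siCont, 192, 187 and 206 in TGFβ, 83, 80.7 and 77.5 in siKLF10 and 101, 101 and 104 in siKLF10+TGFβ. All Panc1 siKLF10 libraries lay below siCont (log2 fold change -0.76 ± 0.060 (SE), adjusted p = 2.59e-09). In A549 it stood at 110.2 and 107 CPM in siCont, 179 and 179 in TGFβ, 102 and 109 in siKLF10 and 151 and 142 in siKLF10+TGFβ. There the siKLF10 libraries overlapped siCont (log2 fold change -0.05 ± 0.080 (SE), adjusted p = 0.743), and with TGFβ the difference was -0.29 ± 0.078 (adjusted p = 0.00776). The label is therefore not borne out by KLF10 RNA in A549 without TGFβ, and those samples are called below the libraries labelled siKLF10. The tissue markers counted were at or near 0. The 6 pancreas markers (PDX1, PTF1A, CPA1, PRSS1, AMY2A and INS) summed to at most 0.26 CPM in Panc1, with 5 of 6 at 0 in every Panc1 group. The 5 lung alveolar markers summed to at most 2.51 CPM in A549. No duct marker was among the 6, and the epithelial keratin KRT19 stood at 222.7, 213.8 and 235.9 CPM in Panc1 siCont. Epithelial markers summed to 847 to 973 CPM in Panc1 siCont and 433 to 458 in TGFβ, and to 4574 to 4739 and 1627 to 1799 CPM in the same A549 groups. The fibroblast markers reached at most 13.8 CPM, in A549 siKLF10+TGFβ.

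Which transporters dominated differed between the lines. Levels can be ranked between genes only per length, here as CPM per kilobase of GENCODE v29 exons. In Panc1 siCont the order was SLC38A2 at 168.8, SLC38A1 at 53.4, SLC7A5 at 41.6, the taurine carrier SLC6A6 at 38.2, SLC1A5 at 29.5 and SLC3A2 at 26.8 CPM per kilobase. In A549 siCont it was SLC7A5 at 324.8, SLC3A2 at 259.5, SLC38A2 at 114.5, SLC1A5 at 103.4 and SLC7A7 at 64.5 CPM per kilobase. Glutamine carriers of the SLC38 family thus stood highest in Panc1 and the LAT1 pair in A549, with the heavy chain SLC3A2 second there.

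**Figure D1:**
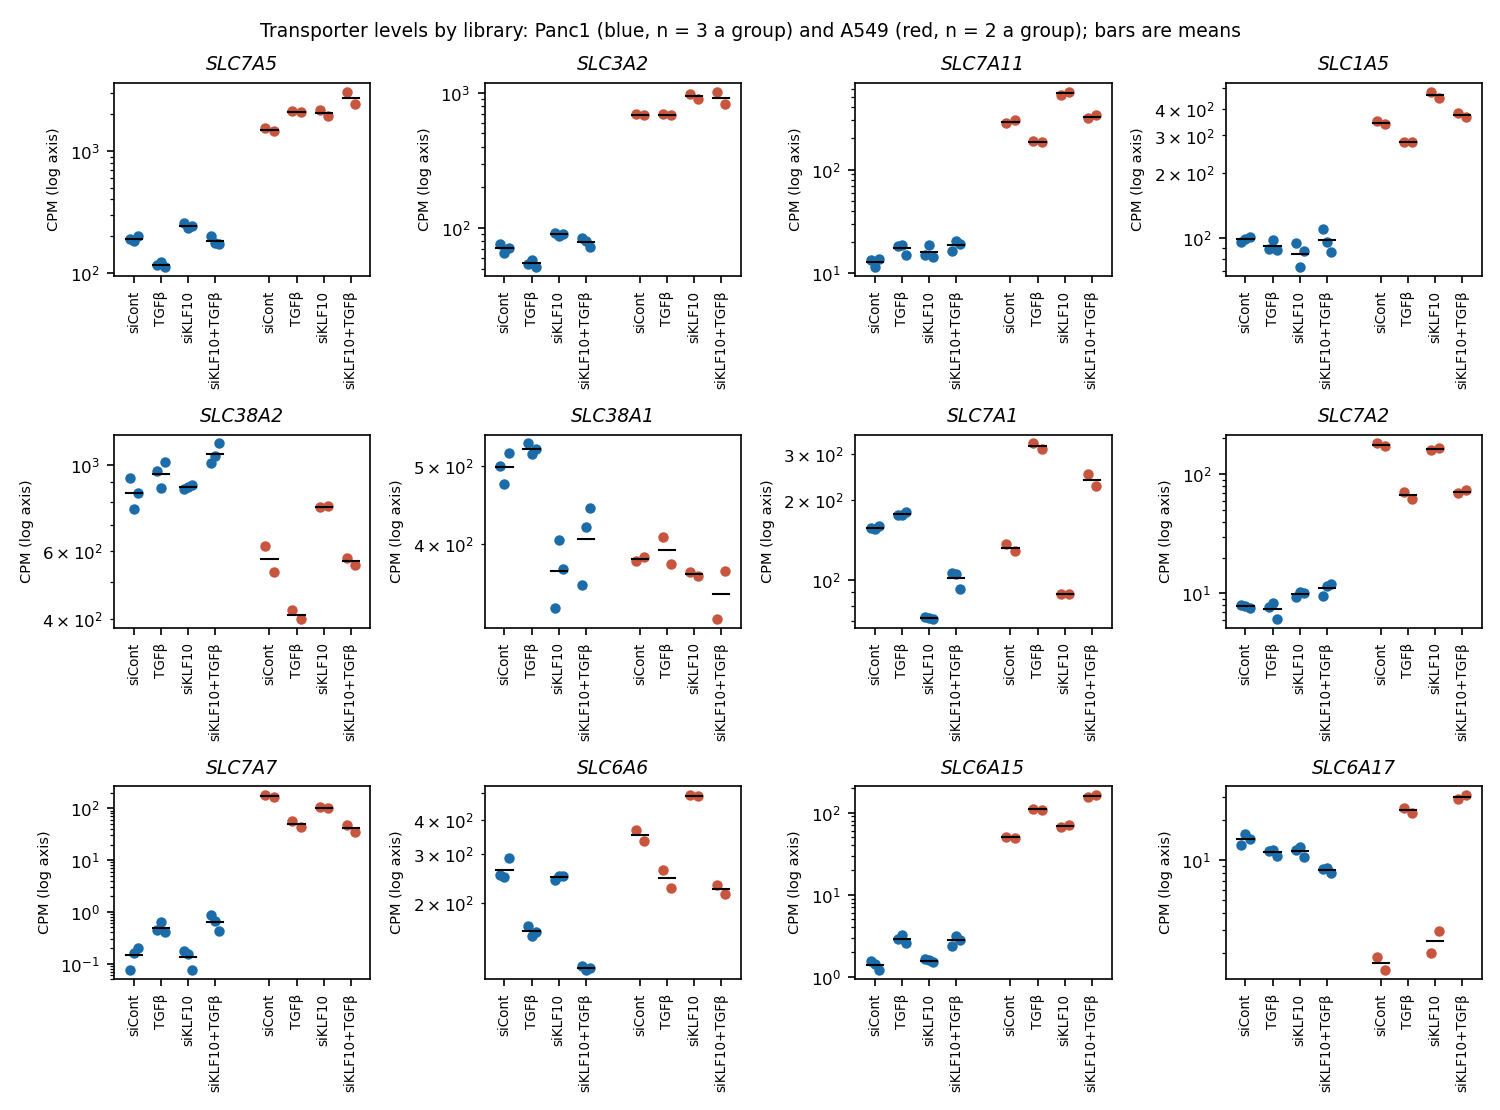
Level of 12 transporters in every library, in CPM on a log axis that differs between panels. Each point is 1 library of the condition named under it, Panc1 in blue (n = 3) and A549 in red (n = 2), and bars are group means. SLC7A5 lay between 111 and 257 CPM in Panc1 and between 1448 and 3058 CPM in A549.

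With TGFβ, 22 of the 31 transporters tested in A549 and 11 of the 31 tested in Panc1 differed from siCont. A call means an adjusted p under 0.05 in edgeR's quasi-likelihood test, adjusted by Benjamini-Hochberg over all genes tested in that line. In Panc1, 6 of 31 transporters were higher and 5 lower in TGFβ than in siCont, against 14.0% and 15.1% of all genes tested. In A549, 12 of 31 were higher and 10 lower, against 24.2% and 23.5% of all genes. Leaving out 1 library took the Panc1 count of 11 down to 7, without siCont B or without TGFβ A. For siKLF10+TGFβ against siKLF10, 8 were higher and 5 lower in Panc1 (22.6% and 22.3% of all genes), and 13 higher and 10 lower in A549 (26.5% and 26.8%). The median absolute log2 fold change of the tested transporters was 0.32 in Panc1 and 0.64 in A549 for TGFβ against siCont, beside 0.17 and 0.34 over all genes.

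The siKLF10 libraries differed from siCont mostly upward in A549 and both ways in Panc1. Panc1 had 7 transporters higher and 6 lower in siKLF10 than in siCont (17.3% and 18.3% of all genes), and 7 higher and 6 lower in siKLF10+TGFβ than in TGFβ (21.1% and 20.6%). Without siCont A the first of these counts dropped from 13 to 8. A549 had 8 higher and 3 lower in siKLF10 than in siCont (9.57% and 9.96%), and 12 higher and 2 lower in siKLF10+TGFβ than in TGFβ (14.4% and 13.9%). Without TGFβ B this last count dropped from 14 to 9. The TGFβ and siKLF10 comparisons against siCont share the siCont libraries, so their values are given side by side only.

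**Figure D2:**
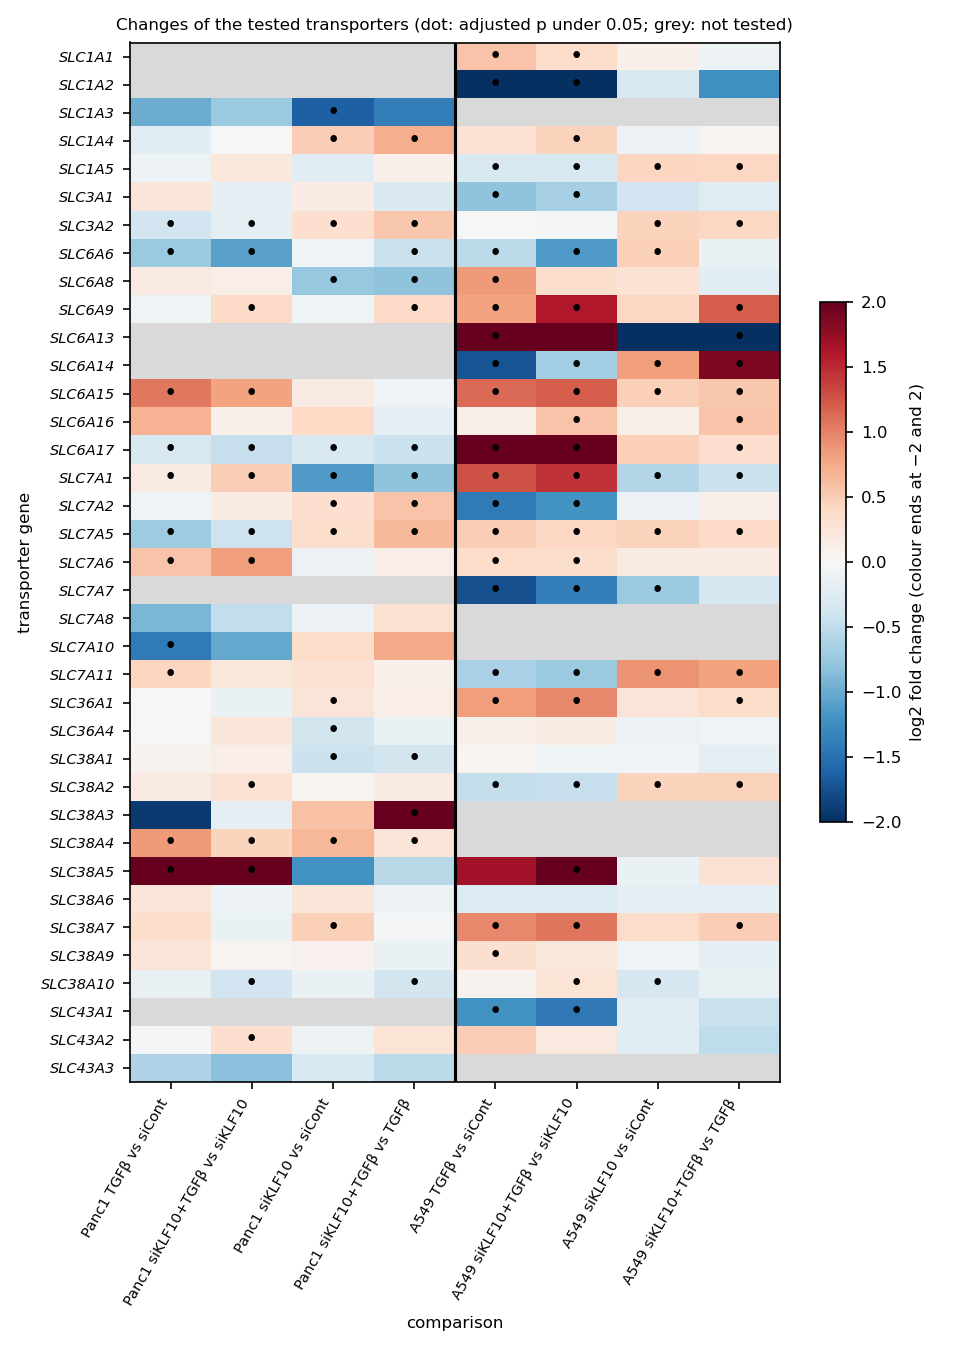
Map of log2 fold changes of the 37 tested transporters (rows) in 4 comparisons of each line (columns). Red is higher and blue lower in the first-named group, colours end at -2 and 2, dots mark adjusted p under 0.05 and grey cells were not tested. In A549, 22 of 31 transporters carry a dot for TGFβ against siCont, and in Panc1 11 of 31.

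Among the exchangers that pair with SLC3A2, SLC7A5 fell with TGFβ in Panc1 and rose in A549. In Panc1 it stood at 190.3, 182 and 199.7 CPM in siCont, 116, 124 and 111 in TGFβ, 257, 231 and 241 in siKLF10 and 199, 176 and 172 in siKLF10+TGFβ. The TGFβ libraries were the lowest and the siKLF10 libraries the highest, while siKLF10+TGFβ overlapped siCont. TGFβ lowered it 1.63-fold (log2 fold change -0.71 ± 0.067 (SE), adjusted p = 2.03e-08), and 1.33-fold in the siKLF10 background (-0.41 ± 0.066, adjusted p = 2.46e-05). The siKLF10 libraries were higher without TGFβ (0.35 ± 0.066, adjusted p = 0.000278) and with it (0.64 ± 0.068, adjusted p = 1.36e-07). In A549 the values were 1533 and 1448 CPM in siCont, 2121 and 2072 in TGFβ, 2163 and 1928 in siKLF10 and 3058 and 2406 in siKLF10+TGFβ. Every other A549 group lay above siCont there, and siKLF10+TGFβ was the highest. TGFβ raised it 1.41-fold (0.49 ± 0.096, adjusted p = 0.000328) and, in the libraries labelled siKLF10, 1.33-fold (0.42 ± 0.096, adjusted p = 0.00123). The siKLF10 differences were 0.46 ± 0.096, adjusted p = 0.00243 without TGFβ (not called without siKLF10 A, adjusted p = 0.0645) and 0.38 ± 0.096, adjusted p = 0.00597 with it (not called without TGFβ A or B, adjusted p from 0.0533 to 0.0712). The 2 TGFβ responses differed between lines by -1.12 ± 0.12 on the log2 scale, Panc1 minus A549 (adjusted p = 2.83e-09). The near-identical pseudogenes SLC7A5P1 and SLC7A5P2 stayed at or below 1.78 CPM. Reads shared with them may have been split, since the counting rule for such reads is not known here.

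SLC3A2, the heavy chain (also called 4F2hc or CD98), followed SLC7A5 in Panc1 on a smaller scale but did not move with TGFβ in A549 beyond the spread. Panc1 values were 76.2, 65.9 and 71.4 CPM in siCont, 54.7, 58.6 and 51.4 in TGFβ, 92.8, 87.9 and 90.3 in siKLF10 and 84.9, 80.2 and 72.9 in siKLF10+TGFβ. TGFβ lay below siCont in all libraries (log2 fold change -0.38 ± 0.074 (SE), adjusted p = 0.000419) and siKLF10 above it (0.34 ± 0.073, adjusted p = 0.000822). With TGFβ the siKLF10 difference was 0.53 ± 0.074, adjusted p = 6.02e-06, and the TGFβ response within siKLF10 was -0.19 ± 0.073, adjusted p = 0.0419 (not called without siKLF10 A or C or siKLF10+TGFβ B or C or with DESeq2 or on only the groups compared, adjusted p from 0.0512 to 0.19). A549 values were 692 and 686 CPM in siCont, 692 and 683 in TGFβ, 983 and 893 in siKLF10 and 1015 and 818 in siKLF10+TGFβ. The A549 siCont and TGFβ values overlapped, and the 95% interval of their log2 difference was -0.19 to 0.18. Both groups labelled siKLF10 stood above their controls, by 0.45 ± 0.088, adjusted p = 0.00118 without TGFβ and by 0.41 ± 0.088, adjusted p = 0.00141 with it.

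SLC7A11, the cystine and glutamate exchanger that supplies cysteine for glutathione, moved in opposite directions with TGFβ in the lines. In A549 it stood at 282 and 298 CPM in siCont, 188 and 184 in TGFβ, 521 and 561 in siKLF10 and 314 and 332 in siKLF10+TGFβ. No groups overlapped: TGFβ was the lowest, siKLF10 the highest, and siKLF10+TGFβ lay just above siCont. TGFβ lowered it 1.56-fold (log2 fold change -0.64 ± 0.076 (SE), adjusted p = 3.64e-07) and, in the libraries labelled siKLF10, 1.67-fold (-0.74 ± 0.074, adjusted p = 2.21e-08). The siKLF10 libraries were 1.87-fold higher without TGFβ (0.90 ± 0.074, adjusted p = 2.42e-08) and 1.74-fold higher with it (0.80 ± 0.076, adjusted p = 1.01e-07). In Panc1, where levels were far lower, it stood at 13.5, 11.4 and 13.7 CPM in siCont, 18.4, 18.7 and 15.2 in TGFβ, 14.9, 18.6 and 14.3 in siKLF10 and 16.5, 20.7 and 19.2 in siKLF10+TGFβ. Each TGFβ value lay above each siCont value (0.43 ± 0.12, adjusted p = 0.011). That call did not hold without siCont B or TGFβ A or B, adjusted p from 0.0546 to 0.0691. The siKLF10 differences did not pass the test in Panc1 (0.31 ± 0.13, adjusted p = 0.063 without TGFβ and 0.11 ± 0.12, adjusted p = 0.493 with it). Line differences were called for the TGFβ response (1.15 ± 0.15, adjusted p = 1.08e-07) and for the siKLF10 effect without (-0.57 ± 0.15, adjusted p = 0.00588) and with TGFβ (-0.73 ± 0.14, adjusted p = 0.000324), all Panc1 minus A549.

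The other light chains behaved separately. SLC7A6 (y+LAT2), which exchanges cationic for neutral amino acids, rose with TGFβ in both lines. It stood at 71.6, 71 and 73.3 CPM in Panc1 siCont and 106, 108 and 106 in TGFβ, and at 65.2, 66 and 66.9 in siKLF10 and 112, 124 and 117 in siKLF10+TGFβ. Both TGFβ groups lay clear above the groups without it (log2 fold change 0.57 ± 0.059 (SE), adjusted p = 7.70e-08, and 0.83 ± 0.060, adjusted p = 1.18e-10 within siKLF10). A549 rose from 138 and 131 CPM in siCont to 186 and 160.5 in TGFβ (0.36 ± 0.086, adjusted p = 0.0013), not called without TGFβ A, adjusted p = 0.0684. Among the A549 libraries labelled siKLF10 the rise was 0.36 ± 0.085 (adjusted p = 0.00125). SLC7A6 overlaps its neighbour SLC7A6OS, which stood at 11.1 to 38.9 CPM, so reads of the pair may be hard to assign. SLC7A7 (y+LAT1), its close relative, was expressed in A549, at 183 and 165 CPM in siCont, 57.6 and 44.1 in TGFβ, 107 and 101 in siKLF10 and 47.8 and 34.4 in siKLF10+TGFβ. It was below 1 CPM in all Panc1 libraries. TGFβ lowered it 3.39-fold in A549 (-1.76 ± 0.15, adjusted p = 3.50e-06) and 2.57-fold in the libraries labelled siKLF10 (-1.36 ± 0.15, adjusted p = 2.69e-05). Those libraries were also lower than siCont (-0.74 ± 0.14, adjusted p = 0.00508, not called without siKLF10 B, adjusted p = 0.0541). SLC3A1, the heavy chain of the renal cystine system, fell in A549 from 19.3 and 21.3 CPM in siCont to 12.1 and 10.8 in TGFβ (-0.81 ± 0.16, adjusted p = 0.000159) and from 15.5 and 15.5 in siKLF10 to 11.6 and 8.5 in siKLF10+TGFβ (-0.66 ± 0.16, adjusted p = 0.00117). SLC7A10, a carrier of small neutral amino acids, was called lower with TGFβ in Panc1 (-1.41 ± 0.56, adjusted p = 0.0446), but its values of 0.736, 1.1 and 0.399 CPM in siCont and 0.145, 0.479 and 0.204 in TGFβ overlapped, and the call was lost without siCont A or B or TGFβ A or C or without the filter or with DESeq2, adjusted p from 0.0554 to 0.223. Without TGFβ B its log2 fold change was -1.997 in place of -1.41.

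The cationic amino acid transporter SLC7A1 (CAT1) was among the clearest responders to both treatments. Panc1 values were 158, 156 and 160.0 CPM in siCont, 177, 177 and 181 in TGFβ, 72.6, 71.8 and 71.3 in siKLF10 and 106, 106 and 92.3 in siKLF10+TGFβ. The 4 groups did not overlap, with siKLF10 the lowest and TGFβ the highest. The siKLF10 libraries were 2.2-fold lower than siCont (log2 fold change -1.13 ± 0.062 (SE), adjusted p = 7.52e-12), and siKLF10+TGFβ was 1.75-fold lower than TGFβ (-0.81 ± 0.060, adjusted p = 7.47e-10). TGFβ raised it 1.41-fold in the siKLF10 background (0.50 ± 0.063, adjusted p = 8.90e-07). Without the siRNA the rise was 0.17 ± 0.059 (adjusted p = 0.0295), not called without siCont A or B or TGFβ A or B or C, adjusted p from 0.0629 to 0.0892. In A549 it stood at 137 and 129 CPM in siCont, 329 and 314 in TGFβ, 88.3 and 88.3 in siKLF10 and 252 and 227 in siKLF10+TGFβ. The order was the same at the bottom and the top as in Panc1, again with no overlap. TGFβ raised it 2.42-fold (1.28 ± 0.078, adjusted p = 8.49e-12) and, in the libraries labelled siKLF10, 2.71-fold (1.44 ± 0.081, adjusted p = 1.68e-12). Those libraries were lower than their controls without (-0.59 ± 0.082, adjusted p = 2.77e-05) and with TGFβ (-0.43 ± 0.077, adjusted p = 0.000275). SLC7A1 was thus lower in every siKLF10 group, including in A549, where KLF10 RNA itself was not lowered without TGFβ. The TGFβ response differed between lines by -1.02 ± 0.099 (adjusted p = 4.58e-10), and the siKLF10 effect by -0.52 ± 0.10 without (adjusted p = 0.000488) and -0.42 ± 0.099 with TGFβ (adjusted p = 0.0022).

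SLC7A2 (CAT2), the second cationic transporter, was mainly expressed in A549 and fell there with TGFβ. Values were 182 and 173 CPM in A549 siCont, 70.9 and 62.2 in TGFβ, 161 and 166 in siKLF10 and 69 and 73.4 in siKLF10+TGFβ. Both TGFβ groups lay far below the others (log2 fold change -1.41 ± 0.087 (SE), adjusted p = 8.44e-12, and -1.19 ± 0.084, adjusted p = 8.05e-11 among the libraries labelled siKLF10), so in A549 TGFβ moved SLC7A1 and SLC7A2 in opposite directions. In Panc1 it stood at 8.02, 7.87 and 7.58 CPM in siCont, 7.63, 8.39 and 6.12 in TGFβ, 9.33, 10.3 and 10.1 in siKLF10 and 9.48, 11.5 and 12.1 in siKLF10+TGFβ. The siKLF10+TGFβ libraries were higher than TGFβ (0.58 ± 0.13, adjusted p = 0.00137). The siKLF10 difference without TGFβ was 0.34 ± 0.13, adjusted p = 0.0483 and was lost without siCont A or B or C or siKLF10 A or B or C or with DESeq2 size factors or without the filter or with DESeq2, adjusted p from 0.0524 to 0.127. Its TGFβ response differed between lines (1.40 ± 0.16, adjusted p = 1.49e-08).

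Among the carriers of glutamine, SLC1A5 (ASCT2), a sodium-dependent exchanger of neutral amino acids, changed in A549 and not by the test in Panc1. A549 values were 351 and 338 CPM in siCont, 280.0 and 278 in TGFβ, 479.6 and 447 in siKLF10 and 380.1 and 366 in siKLF10+TGFβ. TGFβ libraries were the lowest and siKLF10 the highest, and no groups overlapped. TGFβ lowered it (log2 fold change -0.30 ± 0.073 (SE), adjusted p = 0.00171, and -0.31 ± 0.073, adjusted p = 0.000974 among the libraries labelled siKLF10), and the siKLF10 libraries were higher without (0.43 ± 0.073, adjusted p = 0.000232) and with TGFβ (0.42 ± 0.073, adjusted p = 0.000195). In Panc1 it stood at 95.4, 98.3 and 101 CPM in siCont, 88.2, 97.4 and 88.1 in TGFβ, 94.1, 72.7 and 86.3 in siKLF10 and 109, 95.8 and 86.2 in siKLF10+TGFβ, and the 95% interval of its TGFβ log2 fold change was -0.29 to 0.08. The Panc1 siKLF10 libraries lay below siCont without overlap (-0.22, 95% interval -0.40 to -0.04, adjusted p = 0.0568). Within Panc1 siKLF10 the TGFβ change was 0.21 (0.02 to 0.39, adjusted p = 0.0611). With TGFβ the Panc1 siKLF10 difference was 0.09 (-0.09 to 0.28, adjusted p = 0.413). The siKLF10 effect without TGFβ differed between lines (-0.62 ± 0.12, adjusted p = 0.000484).

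SLC38A2 (SNAT2), the amino-acid-regulated System A carrier, also had TGFβ as the lowest and siKLF10 as the highest group in A549. It stood at 616 and 530.0 CPM in A549 siCont, 422 and 401 in TGFβ, 777 and 780.1 in siKLF10 and 576 and 551 in siKLF10+TGFβ. The siKLF10+TGFβ libraries fell within the range of siCont, and the other groups did not overlap. TGFβ lowered it (log2 fold change -0.48 ± 0.079 (SE), adjusted p = 3.43e-05, and -0.47 ± 0.079, adjusted p = 3.57e-05 among the libraries labelled siKLF10), and those libraries were higher than their controls (0.44 ± 0.079, adjusted p = 0.000389 without TGFβ and 0.45 ± 0.079, adjusted p = 0.000192 with it). In Panc1, where it had the highest level per kilobase, it stood at 925, 766 and 844 CPM in siCont, 960.2, 869.6 and 1013 in TGFβ, 865, 877 and 886 in siKLF10 and 1012, 1053 and 1134 in siKLF10+TGFβ. The siKLF10+TGFβ libraries were higher than siKLF10 (0.28 ± 0.069, adjusted p = 0.00204), and the TGFβ response without the siRNA was 0.17 ± 0.069, adjusted p = 0.0794. The TGFβ response differed between lines (0.73 ± 0.11, adjusted p = 4.91e-06).

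SLC38A1 (SNAT1), the second System A carrier, was instead lower in Panc1 siKLF10 libraries. Panc1 values were 499.9, 475 and 519 CPM in siCont, 534, 517 and 525 in TGFβ, 332, 404 and 372 in siKLF10 and 355, 419 and 443 in siKLF10+TGFβ. All siKLF10 and siKLF10+TGFβ libraries lay below all others (log2 fold change -0.43 ± 0.075 (SE), adjusted p = 0.000126 without TGFβ, and -0.37 ± 0.075, adjusted p = 0.000411 with it). In A549 it stood at 381 and 384 CPM in siCont, 408 and 377 in TGFβ, 368 and 364 in siKLF10 and 322 and 369 in siKLF10+TGFβ. No A549 comparison passed the test, and the 95% interval of the siKLF10 log2 difference was -0.23 to 0.10 without TGFβ. With TGFβ that interval was -0.35 to -0.02 (-0.18 ± 0.079, adjusted p = 0.0889), and the groups did not overlap.

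Of the other SLC38 members, SLC38A4, a System A carrier known from liver, was expressed in Panc1, at 12.9, 14.7 and 13.4 CPM in siCont, 26.7, 22.5 and 24.7 in TGFβ, 21, 24 and 19.99 in siKLF10 and 26.5, 28.8 and 33.5 in siKLF10+TGFβ, and was at most 0.148 CPM in A549. The siCont libraries were lowest. TGFβ raised it 1.8-fold (log2 fold change 0.85 ± 0.11 (SE), adjusted p = 1.56e-06), and 1.36-fold within siKLF10 (0.44 ± 0.10, adjusted p = 0.00116). The siKLF10 libraries were 1.58-fold higher without TGFβ (0.66 ± 0.11, adjusted p = 6.68e-05), while the difference with TGFβ (0.26 ± 0.09983, adjusted p = 0.0435) had overlapping groups and was lost without TGFβ B or C or siKLF10+TGFβ B or C or with DESeq2 or on only the groups compared, adjusted p from 0.0518 to 0.265. SLC38A5 (SNAT5), a System N carrier of glutamine, serine and glycine, rose with TGFβ from 0.294, 0.158 and 0.133 to 1.53, 1.52 and 1.43 CPM in Panc1 (2.88 ± 0.53, adjusted p = 1.46e-05). Within siKLF10 it went from 0.0856, 0.0754 and 0.0757 to 0.658, 1.3 and 1.13 CPM, which is 39 against 3 counts and a ratio of 11.9 (95% counting interval 3.78 to 60.2). In A549 it was called only within the libraries labelled siKLF10 (2.10 ± 0.94, adjusted p = 0.0307), and was lost without siKLF10 A or with DESeq2, adjusted p from 0.126 to 0.341. Its log2 fold change there was 1.19 without siKLF10 A and 3.30 without siKLF10 B. SLC38A7, a lysosomal glutamine exporter, rose with TGFβ in A549 from 13.9 and 14.3 to 28.8 and 25.8 CPM (0.96 ± 0.15, adjusted p = 1.91e-05) and, in the libraries labelled siKLF10, from 17.8 and 19 to 45.3 and 32.9 CPM (1.08 ± 0.14, adjusted p = 1.68e-06). Its siKLF10 difference with TGFβ (0.49 ± 0.14, adjusted p = 0.00938) was lost without TGFβ B or siKLF10+TGFβ A, adjusted p from 0.076 to 0.104, and in Panc1 that without TGFβ (0.47 ± 0.18, adjusted p = 0.0493) was lost without siCont A or B or siKLF10 B or C or with DESeq2 size factors or with DESeq2, adjusted p from 0.0501 to 0.155. SLC38A9, the lysosomal arginine sensor of mTORC1, was higher with TGFβ in A549 (0.32 ± 0.12, adjusted p = 0.0292), lost without siCont B or TGFβ A or B or with DESeq2, adjusted p from 0.0628 to 0.191. SLC38A10 was lower in Panc1 siKLF10+TGFβ than in TGFβ (-0.37 ± 0.096, adjusted p = 0.00352) and than in siKLF10 (-0.38 ± 0.096, adjusted p = 0.00275). In A549 it was lower in siKLF10 than in siCont (-0.34 ± 0.080, adjusted p = 0.00472, lost without siCont A or B or siKLF10 A, adjusted p from 0.0537 to 0.0661) and higher in siKLF10+TGFβ than in siKLF10 (0.27 ± 0.080, adjusted p = 0.00737, lost without siKLF10 A, adjusted p = 0.0626). SLC38A3, near its floor in Panc1, was higher in siKLF10+TGFβ (0.527, 0.489 and 0.954 CPM) than in TGFβ (0.218, 0 and 0.136 CPM, 2.31 ± 0.85, adjusted p = 0.0121), lost without TGFβ B or siKLF10+TGFβ C, adjusted p from 0.0546 to 0.0595, and its log2 fold change was 2.98 without TGFβ A.

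In the SLC6 family of sodium- and chloride-coupled carriers, the taurine transporter SLC6A6 fell with TGFβ in both lines. Panc1 values were 252, 248 and 292 CPM in siCont, 166, 152 and 157 in TGFβ, 242, 251 and 250.2 in siKLF10 and 118, 114 and 116 in siKLF10+TGFβ. Both TGFβ groups were far below the others, and siKLF10+TGFβ was the lowest. TGFβ lowered it 1.67-fold (log2 fold change -0.74 ± 0.063 (SE), adjusted p = 3.91e-09) and, within siKLF10, 2.13-fold (-1.09 ± 0.064, adjusted p = 4.12e-12). A549 values were 368 and 336 CPM in siCont, 264 and 227 in TGFβ, 492 and 486 in siKLF10 and 233 and 216 in siKLF10+TGFβ. The order at the top differed, since the libraries labelled siKLF10 without TGFβ were the highest (0.47 ± 0.081, adjusted p = 0.000282). TGFβ lowered it 1.43-fold (-0.52 ± 0.083, adjusted p = 2.05e-05) and, among those libraries, 2.18-fold (-1.13 ± 0.082, adjusted p = 1.42e-10).

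SLC6A6 also had a called interaction in each line, the TGFβ change in the libraries labelled siKLF10 minus the change in the others. In A549 these libraries had no lowered KLF10 RNA without TGFβ. In Panc1 the interaction was called for 1 transporter with a positive and 1 with a negative sign (2.56% and 1.86% of all genes), and in A549 for 0 and 1 (3.26% and 3.23%). In A549 the count of 0 stands beside 3 transporters with an unadjusted p under 0.05 in either direction, and DESeq2 called 1 in all. The interaction of SLC6A6 was -0.36 ± 0.090, adjusted p = 0.0242 in Panc1, lost without siCont A or B or TGFβ A or C or siKLF10 C or siKLF10+TGFβ B, adjusted p from 0.052 to 0.0897. In A549 it was -0.61 ± 0.12, adjusted p = 0.00252, lost without TGFβ A, adjusted p = 0.051. The positive one in Panc1 was SLC7A1 (0.32 ± 0.086, adjusted p = 0.0332), lost without siCont A or B or TGFβ A or B or C or siKLF10 A or C or siKLF10+TGFβ B, adjusted p from 0.0511 to 0.111. The A549 count was 3 without siKLF10+TGFβ A or without siKLF10+TGFβ B.

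SLC6A8, the creatine transporter, was lower in the Panc1 siKLF10 groups. It stood at 33.1, 36.5 and 36.5 CPM in siCont, 41.1, 40.4 and 38.6 in TGFβ, 20.2, 22.5 and 20.2 in siKLF10 and 25.6, 22.3 and 20.6 in siKLF10+TGFβ. All siKLF10 and siKLF10+TGFβ libraries were below all others (log2 fold change -0.75 ± 0.089 (SE), adjusted p = 9.26e-07 without TGFβ and -0.81 ± 0.088, adjusted p = 2.08e-07 with it). In A549 it rose with TGFβ from 7.18 and 6.65 to 12 and 13.3 CPM (0.86 ± 0.19, adjusted p = 0.000778), and stood at 6.77 and 10.9 CPM in siKLF10 and 11.6 and 10.3 in siKLF10+TGFβ, with neither siKLF10 comparison called. Among the libraries labelled siKLF10 the TGFβ change was not called (0.35 ± 0.19, adjusted p = 0.117), and the groups overlapped. The siKLF10 effect differed between lines without (-1.02 ± 0.21, adjusted p = 0.000665) and with TGFβ (-0.63 ± 0.19, adjusted p = 0.0135), the second of these lost without A549 TGFβ A, adjusted p = 0.111. The TGFβ response differed by -0.60 ± 0.19, adjusted p = 0.0174, lost without A549 siCont B or A549 TGFβ B, adjusted p from 0.0793 to 0.0828.

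SLC6A15 (B0AT2), which takes up branched-chain amino acids and proline, rose with TGFβ in both lines. In A549 it stood at 50.9 and 49.3 CPM in siCont, 111 and 109 in TGFβ, 67.9 and 71.3 in siKLF10 and 156 and 165 in siKLF10+TGFβ. No groups overlapped and siKLF10+TGFβ was the highest. TGFβ raised it 2.2-fold (log2 fold change 1.14 ± 0.085 (SE), adjusted p = 2.27e-10, and 1.21 ± 0.082, adjusted p = 4.04e-11 among the libraries labelled siKLF10), and those libraries were higher without (0.47 ± 0.087, adjusted p = 0.000549) and with TGFβ (0.54 ± 0.080, adjusted p = 2.96e-05). In Panc1 the level was low, 1.55, 1.42 and 1.2 CPM in siCont and 2.91, 3.19 and 2.58 in TGFβ, and the TGFβ change was 2.08-fold (1.06 ± 0.23, adjusted p = 0.000867, and 0.80 ± 0.23, adjusted p = 0.00604 within siKLF10). The 95% interval of the difference between the lines' TGFβ responses was -0.44 to 0.45 on the log2 scale.

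SLC6A17, a related vesicular carrier of neutral amino acids, gave the widest gap between the lines' TGFβ responses among the 25 transporters tested in both. A549 values were 1.89 and 1.49 CPM in siCont, 24.9 and 22.9 in TGFβ, 2 and 2.93 in siKLF10 and 29.1 and 31.2 in siKLF10+TGFβ. The 2 TGFβ groups stood far above the others, 14-fold without (log2 fold change 3.81 ± 0.23 (SE), adjusted p = 2.51e-13) and 12.7-fold among the libraries labelled siKLF10 (3.67 ± 0.22, adjusted p = 1.86e-13). The siKLF10 difference with TGFβ (0.34 ± 0.13, adjusted p = 0.0498) was lost without TGFβ A or B or siKLF10+TGFβ B or with DESeq2 or on only the groups compared, adjusted p from 0.0763 to 0.252. In Panc1 it stood at 13, 15.8 and 14.4 CPM in siCont, 11.8, 12 and 10.8 in TGFβ, 12, 12.6 and 10.5 in siKLF10 and 8.69, 8.8 and 7.98 in siKLF10+TGFβ. It was lower in siKLF10+TGFβ than in TGFβ (-0.44 ± 0.12, adjusted p = 0.00513) and than in siKLF10 (-0.46 ± 0.12, adjusted p = 0.00324). Against siCont the falls were -0.32 ± 0.11, adjusted p = 0.0296 with TGFβ, lost without siCont B or C or TGFβ A or C or without the filter or with DESeq2, adjusted p from 0.0503 to 0.149, and -0.30 ± 0.11, adjusted p = 0.0382 with siKLF10, lost without siCont B or C or siKLF10 A or C or without the filter or with DESeq2 or on only the groups compared, adjusted p from 0.0544 to 0.188. The responses to TGFβ differed between lines by -4.05 ± 0.26 (adjusted p = 5.42e-16).

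SLC6A9 (GLYT1), the glycine transporter, rose with TGFβ in A549 from 5.58 and 4.72 to 8.85 and 9.35 CPM (log2 fold change 0.80 ± 0.19 (SE), adjusted p = 0.00126). Among the libraries labelled siKLF10 it went from 7.81 and 5.72 to 21.1 and 20.9 CPM (1.59 ± 0.16, adjusted p = 2.02e-08). With TGFβ, those libraries were 2.31-fold higher than the TGFβ group (1.21 ± 0.16, adjusted p = 4.61e-06), so the combined group stood above all others. The interaction of SLC6A9 was not called in A549 (0.79 ± 0.25, adjusted p = 0.0645) or in Panc1 (0.47 ± 0.20, adjusted p = 0.199). In Panc1 the siKLF10+TGFβ values of 9.28, 7.83 and 7.37 CPM lay above the TGFβ values of 5.67, 7.03 and 6.32 in every library (0.38 ± 0.14, adjusted p = 0.032, lost without TGFβ A or C or siKLF10+TGFβ A or without the filter or with DESeq2, adjusted p from 0.0563 to 0.169) and above siKLF10 (0.39 ± 0.14, adjusted p = 0.0283, lost without siKLF10 A or B or siKLF10+TGFβ A or with DESeq2, adjusted p from 0.0606 to 0.15). SLC6A14 (ATB0,+), a concentrative carrier of neutral and cationic amino acids, was expressed in A549, at 4.5 and 4.29 CPM in siCont, 1.31 and 1.33 in TGFβ, 7.12 and 8.93 in siKLF10 and 3.24 and 5.9 in siKLF10+TGFβ. TGFβ was lowest and siKLF10 highest. TGFβ lowered it 3.32-fold (-1.73 ± 0.39, adjusted p = 0.00033), and siKLF10+TGFβ was 3.65-fold above TGFβ (1.87 ± 0.38, adjusted p = 0.00029). Its siKLF10 difference without TGFβ (0.84 ± 0.24, adjusted p = 0.0147) was lost without siCont A or B or siKLF10 B or with DESeq2, adjusted p from 0.0786 to 0.119, and the TGFβ fall among those libraries (-0.70 ± 0.23, adjusted p = 0.0132) was lost without siKLF10 B or siKLF10+TGFβ A or with DESeq2, adjusted p from 0.0708 to 0.105.

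SLC6A13 (GAT2), a carrier of GABA and taurine, stood out in a single A549 group. It stood at 3.12 and 2.67 CPM in TGFβ and at 0.145 and 0 in siCont, 0 and 0 in siKLF10 and 0 and 0.271 in siKLF10+TGFβ. That is 49 counts in TGFβ against 2 in siCont, a ratio of 35.1 (95% counting interval 9.22 to 298.1). The TGFβ libraries were also above siKLF10+TGFβ (log2 fold change -3.98 ± 0.80 (SE), adjusted p = 3.81e-05), with a fitted value that ranged from -7.89 without siKLF10+TGFβ B to -3.38 without siKLF10+TGFβ A. The fitted TGFβ change was 7.99 without siCont A and 4.24 without siCont B. SLC6A16, an orphan member, was higher in A549 siKLF10+TGFβ than in TGFβ (0.57 ± 0.17, adjusted p = 0.0149, lost without TGFβ A or B or siKLF10+TGFβ B or with DESeq2, adjusted p from 0.0746 to 0.105) and than in siKLF10 (0.56 ± 0.17, adjusted p = 0.00673, lost without siKLF10 A or with DESeq2, adjusted p from 0.0632 to 0.182).

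**Figure D3:**
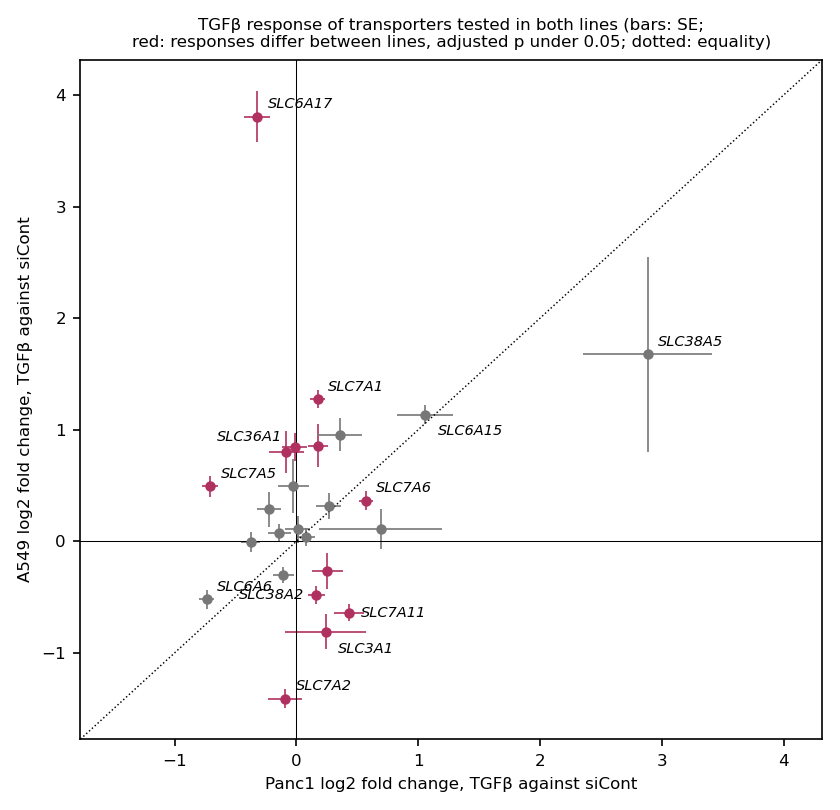
TGFβ response (log2 fold change against siCont, bars SE) of the 25 transporters tested in both lines, Panc1 on the x axis and A549 on the y axis, with the dotted line marking equality. Red points are the 12 whose responses differed between lines at an adjusted p under 0.05, such as SLC6A17 (-0.32 in Panc1 and 3.81 in A549), while SLC6A15 and SLC6A6 sit near the dotted line.

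Among the glutamate carriers, SLC1A1 (EAAT3), which also takes up cysteine, was expressed in A549 and at most 0.442 CPM in Panc1. A549 values were 13.6 and 12.7 CPM in siCont, 19.3 and 19.9 in TGFβ, 14.1 and 14.2 in siKLF10 and 19.5 and 17.2 in siKLF10+TGFβ. TGFβ raised it (log2 fold change 0.57 ± 0.13 (SE), adjusted p = 0.00129). Among the libraries labelled siKLF10 the rise was 0.36 ± 0.13, adjusted p = 0.0254, lost without siKLF10 A or B or siKLF10+TGFβ A or with DESeq2 or on only the groups compared, adjusted p from 0.0564 to 0.104. Neither siKLF10 comparison was called (0.11 without and -0.10 with TGFβ). SLC1A2 (EAAT2) was near the floor: A549 TGFβ held 3 counts against 32 in siCont, 7.44-fold lower (95% counting interval 2.33 to 37.98), and siKLF10+TGFβ 2 against 19 in siKLF10, 15.3-fold lower (3.68 to 135.1). The first call was lost without TGFβ B (adjusted p = 0.062) and the second without siKLF10 A (adjusted p = 0.0884). Its fitted log2 fold changes ran from -6.85 without TGFβ A to -2.03 without TGFβ B, and from -6.36 without siKLF10+TGFβ B to -2.79 without siKLF10 A.

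SLC1A3 (EAAT1) shows how 1 library can set a result. It stood at 4.78, 1.18 and 0.998 CPM in Panc1 siCont, 1.16, 1.52 and 0.816 in TGFβ, 0.856, 0.754 and 0.606 in siKLF10 and 0.329, 0.489 and 0.52 in siKLF10+TGFβ. Library siCont A was far above every other Panc1 library, and the siKLF10 difference was -1.64 ± 0.60, adjusted p = 0.0355. Without siCont A it was -0.56 (adjusted p = 0.294). The call was lost without siCont A or siKLF10 A or B or C or without the filter or on only the groups compared, adjusted p from 0.0623 to 0.294. The TGFβ response was -0.9985 ± 0.52 with siCont A and 0.085 without it. In the same library KRT5, a keratin of basal epithelium, stood at 60.6 CPM beside 21.8 and 22.3 in siCont B and C, and the 5 basal epithelial markers summed to 36.2 to 98.3 CPM over siCont and 11.6 to 21.3 CPM in the other Panc1 groups, with none of the 5 at 0 in a whole group. Their part in the SLC1A3 value was not tested. SLC1A4 (ASCT1), a carrier of alanine, serine and cysteine, gave a steadier pattern in Panc1, at 13.8, 12.5 and 13.6 CPM in siCont, 11.8, 11.1 and 11.2 in TGFβ, 19.2, 18.5 and 18.8 in siKLF10 and 19.4, 17.9 and 19.6 in siKLF10+TGFβ. All siKLF10 and siKLF10+TGFβ libraries lay above all others (log2 fold change 0.50 ± 0.093 (SE), adjusted p = 0.000248 without TGFβ and 0.73 ± 0.095, adjusted p = 2.34e-06 with it). In A549 it was called only for siKLF10+TGFβ against siKLF10 (0.47 ± 0.15, adjusted p = 0.0134), lost without siKLF10 B, adjusted p = 0.185.

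The remaining families were smaller. SLC36A1 (PAT1), a proton-coupled exporter of amino acids from lysosomes, rose with TGFβ in A549 from 17.1 and 15.7 to 30.8 and 27.9 CPM (log2 fold change 0.84 ± 0.13 (SE), adjusted p = 8.55e-06) and, among the libraries labelled siKLF10, from 19 and 20.2 to 41.4 and 35.4 CPM (0.96 ± 0.12, adjusted p = 6.55e-07). Its response differed from that of Panc1 (-0.78 ± 0.16, adjusted p = 0.000264). Its siKLF10 differences were lost in both lines: 0.26 ± 0.099, adjusted p = 0.0471 in Panc1 without siCont A or B or siKLF10 A or B or C or without the filter or with DESeq2, adjusted p from 0.0625 to 0.161, and 0.37 ± 0.12, adjusted p = 0.0195 with TGFβ in A549 without TGFβ A or B or siKLF10+TGFβ A or with DESeq2, adjusted p from 0.0582 to 0.158. SLC36A4, a related carrier of proline and tryptophan, was called lower in Panc1 siKLF10 with overlapping groups (-0.36 ± 0.11, adjusted p = 0.0135), lost without siCont A or siKLF10 A or C, adjusted p from 0.0579 to 0.067. SLC43A1 (LAT3), a facilitative carrier of large neutral amino acids, fell with TGFβ in A549 from 7.83 and 6.04 to 3.02 and 2.97 CPM (-1.22 ± 0.26, adjusted p = 0.000285) and from 5.47 and 6.7 to 2.63 and 1.95 CPM among the libraries labelled siKLF10 (-1.43 ± 0.25, adjusted p = 4.90e-05), the opposite direction to SLC7A5. SLC43A2 (LAT4) was higher in Panc1 siKLF10+TGFβ than in siKLF10 (0.34 ± 0.13, adjusted p = 0.0314), lost without siKLF10 A or C or siKLF10+TGFβ A, adjusted p from 0.0699 to 0.177.

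Across the 37 transporters in the model of both lines, the TGFβ log2 fold change was called more positive in Panc1 than in A549 for 7 and more negative for 7 (17.1% and 13.8% of all genes). The sign of this difference is not the size of the response, which can be larger in either line. Of the 25 tested within each line these were 6 and 6, and the other 2, SLC1A1 and SLC7A7, rest on few Panc1 counts. The siKLF10 log2 fold change without TGFβ was more positive in Panc1 for 2 and more negative for 7 (8.59% and 8.65%). With TGFβ it was more positive for 3 and more negative for 9 (7.52% and 12.3%), of which 2 and 9 were among the 25. These counts dropped from 9 to 5 without A549 siKLF10 B and from 12 to 6 without A549 TGFβ A. The cystine exchanger SLC7A11 was among those more negative in Panc1 in both conditions, and its call held under each alternative run.

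**Figure D4:**
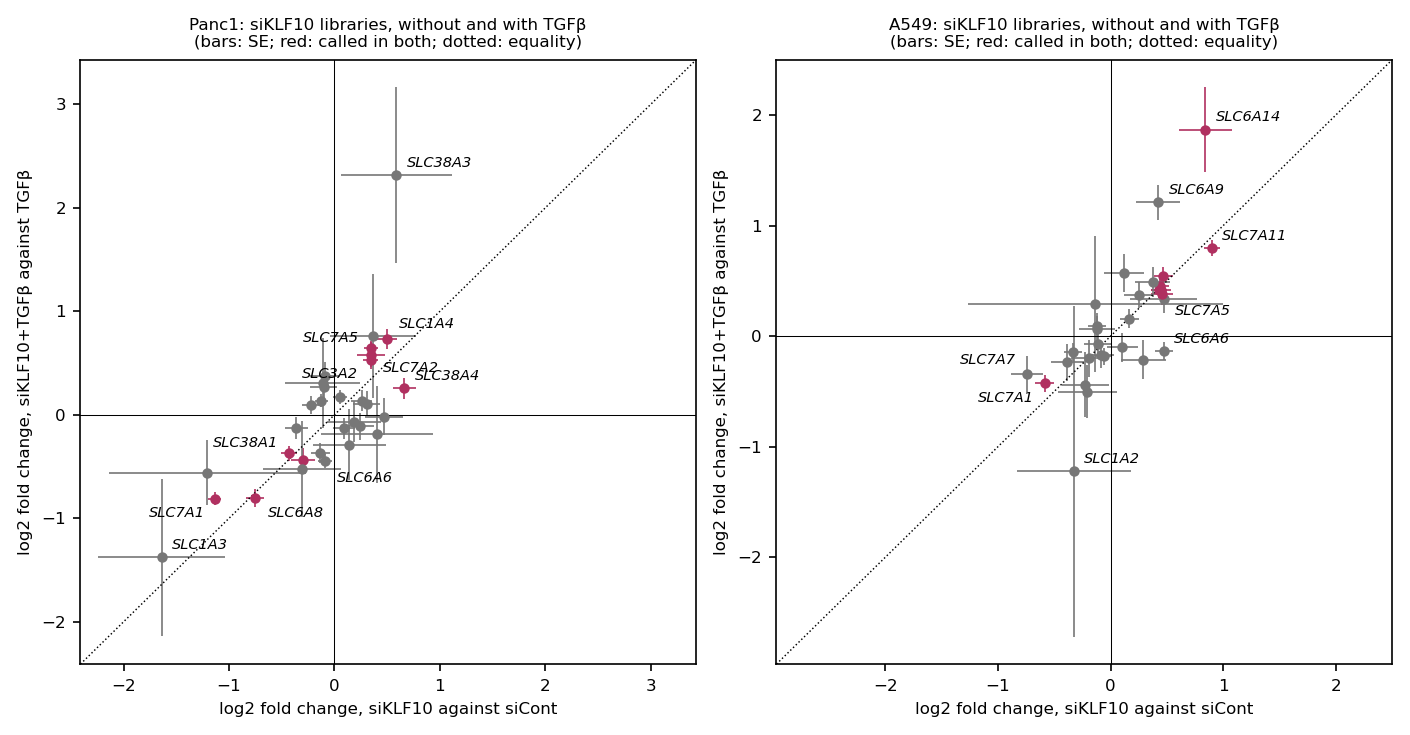
Effect of the siKLF10 libraries without TGFβ (x axis, against siCont) and with TGFβ (y axis, against TGFβ) as log2 fold changes with SE bars, for the transporters tested in Panc1 (left) and A549 (right). Red points were called in both comparisons, SLC6A13 is not drawn, and the pairs share no library. SLC7A1 (-1.13 and -0.81) and SLC6A8 sit low in Panc1, and SLC7A11 (0.90 and 0.80) high in A549.

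Genes of the amino acid response, the programme that ATF4 drives when amino acids run short, were counted beside the transporters. Of 35 such genes that are not transporters, 13 were higher and 2 lower in Panc1 siKLF10 than in siCont (17.3% and 18.3% of all genes), and 21 higher and 3 lower in siKLF10+TGFβ than in TGFβ (21.1% and 20.6%). Their median log2 fold changes were 0.14 and 0.30, beside 0.00 over all genes in each. The largest changes without TGFβ were those of STC2 (0.76 ± 0.068, adjusted p = 1.90e-08), the stress factor DDIT3 (0.72 ± 0.096, adjusted p = 4.97e-06), the cysteine-making enzyme CTH (0.66 ± 0.18, adjusted p = 0.00662) and asparagine synthetase ASNS (0.53 ± 0.070, adjusted p = 3.75e-06). ATF4 itself was higher in both (0.26 ± 0.068, adjusted p = 0.00539 and 0.40 ± 0.068, adjusted p = 6.44e-05). In A549, 12 were higher and 3 lower in the libraries labelled siKLF10 than in siCont (9.57% and 9.96% of all genes), and 14 higher and 2 lower with TGFβ (14.4% and 13.9%), with medians of 0.14 and 0.19. CBS (0.95 ± 0.12, adjusted p = 9.92e-06) and ASNS (0.77 ± 0.091, adjusted p = 3.87e-06) were among the highest there, NUPR1 fell (-0.94 ± 0.28, adjusted p = 0.0174), and ATF4 did not pass the test (-0.01 ± 0.076, adjusted p = 0.94). With TGFβ alone, 4 of the 35 were higher and 6 lower in Panc1, near the background of 14.0% and 15.1% of all genes. In A549, 12 were higher and 13 lower, beside 24.2% and 23.5%.

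Genes of NRF2 and glutathione metabolism, in which SLC7A11 takes part by supplying cystine, were mostly lower with TGFβ in A549. Of 18 genes, 1 was higher and 13 lower than in siCont (24.2% and 23.5% of all genes), with a median log2 fold change of -0.92, and 2 higher and 15 lower among the libraries labelled siKLF10 (26.5% and 26.8%), with a median of -1.16. The glutathione peroxidase GPX2 (-3.32 ± 0.29, adjusted p = 0.000865), OSGIN1 (-2.79 ± 0.18, adjusted p = 4.35e-09) and the quinone reductase NQO1 (-1.54 ± 0.082, adjusted p = 1.06e-12) changed most. In Panc1, 2 were higher and 7 lower with TGFβ (14.0% and 15.1% of all genes), where HMOX1 rose (0.95 ± 0.088, adjusted p = 1.34e-08) while SLC7A11 was not lower. In Panc1 siKLF10, 8 of the 18 were called against siCont, each of them lower (18.3% of all genes were lower). GPX2 had the largest estimate there, with a wide SE (-3.14 ± 1.19, adjusted p = 0.0212). In the A549 libraries labelled siKLF10, in which SLC7A11 was higher, 3 of the 18 were higher and 2 lower (9.57% and 9.96% of all genes). SLC7A11 was also higher in A549 siKLF10+TGFβ than in TGFβ, where 1 of the 18 was higher and 5 lower (14.4% and 13.9%).

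Of the enzymes of glutamine and glutamate use, 3 of 18 were higher and 5 lower with TGFβ in Panc1 (14.0% and 15.1% of all genes), and 3 of 19 higher and 7 lower in A549 (24.2% and 23.5%). Argininosuccinate synthase ASS1, which makes argininosuccinate from citrulline on the way to arginine, fell in Panc1 (-1.60 ± 0.19, adjusted p = 3.55e-07) and A549 (-1.17 ± 0.14, adjusted p = 2.28e-07). GFPT2 rose in both (1.11 ± 0.16, adjusted p = 5.19e-06 and 1.73 ± 0.082, adjusted p = 1.07e-13). In Panc1 siKLF10, 1 was higher and 5 lower (17.3% and 18.3% of all genes). Arginase ARG2 rose (1.70 ± 0.22, adjusted p = 1.38e-06) in the same libraries in which the arginine carrier SLC7A1 was lower. Of the 23 genes of amino acid sensing by mTORC1, 4 were called with TGFβ in Panc1, each of them lower (15.1% of all genes were lower). In A549, 6 were higher and 3 lower, beside 24.2% and 23.5% of all genes. The largest changes were those of FNIP2 (1.46 ± 0.14, adjusted p = 1.76e-08) and the arginine sensor GATSL3 (1.27 ± 0.15, adjusted p = 1.92e-07). With siKLF10, 6 were higher and 5 lower in Panc1 (17.3% and 18.3%) and 2 higher and 1 lower in A549 (9.57% and 9.96%), where GATSL3 changed most (2.07 ± 0.14, adjusted p = 7.51e-10). Of 13 tested amino acid carriers outside the 7 families, 1 was higher and 2 lower with TGFβ in Panc1 (14.0% and 15.1%), and 5 higher and 1 lower in A549 (24.2% and 23.5%), with the ornithine carrier SLC25A15 lower in both (-0.45 ± 0.11, adjusted p = 0.00204 and -0.65 ± 0.11, adjusted p = 2.99e-05).

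Promoters of the transporters were searched for the letters of 3 motifs on both strands: TGATGNAAN (the C/EBP-ATF composite bound by ATF4), TGACNNNGC (the antioxidant response core bound by NRF2) and GTCTAGAC (the SMAD palindrome). RefSeq's GRCh38.p14 promoter windows of 300 bases matched 44 of 59 transporters, with 66 start sites. The submitters' processing notes name hg19, so these coordinates belong to the RefSeq table and not to the deposited counts. The composite was present in 6 of 66 transporter windows and in 3.61% of 35116 windows of all genes, the antioxidant core in 7 of 66 and 13.3%, and the SMAD palindrome in 0 of 66 and 0.202%. No match in a window overlapped another. The stretches below hold 1 match each of 5 transporters that differed in the siKLF10 libraries. SLC3A2 and SLC7A1 also held a composite match, as did SLC1A5 and SLC1A3, which are not shown. The stretches are written 5′ to 3′ in the gene's direction with the match in capitals, each ending at or shortly past the start site or running upstream of it.
SLC1A4, composite on the opposite strand, chr2:64989361-64989399, plus strand, inside the GENCODE v29 gene and outside its exons: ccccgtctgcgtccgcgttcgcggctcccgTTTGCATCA
SLC38A1, composite, chr12:46266512-46266550, minus strand, inside the gene and outside its exons: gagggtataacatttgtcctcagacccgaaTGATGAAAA
SLC3A2, antioxidant core, chr11:62881632-62881698, plus strand, overlapping a non-coding exon: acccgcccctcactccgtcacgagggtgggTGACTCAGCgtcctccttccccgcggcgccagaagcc
SLC7A1, antioxidant core, chr13:29595735-29595803, minus strand, outside the GENCODE v29 gene: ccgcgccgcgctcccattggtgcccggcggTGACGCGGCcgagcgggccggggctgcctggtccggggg
SLC7A5, antioxidant core, chr16:87869501-87869539, minus strand, outside the GENCODE v29 gene: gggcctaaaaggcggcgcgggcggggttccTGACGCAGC
Composite matches were thus present in SLC1A4 and SLC3A2, which were higher in Panc1 siKLF10, and in SLC38A1 and SLC7A1, which were lower. They were also present in SLC1A3, called lower there but not without siCont A, and in SLC1A5, not called there. An antioxidant core match was present in SLC7A5 and SLC3A2, which were higher in the siKLF10 libraries, and in SLC7A1, which was lower. It was also present in SLC1A5, higher in the A549 libraries labelled siKLF10, and in SLC7A7, lower there without TGFβ. The others with this match were SLC1A3, called lower in Panc1 siKLF10, and SLC7A6, not called in any siKLF10 comparison with siCont or TGFβ. A match gives the presence of these letters and no binding was measured. SLC7A11, SLC7A2, SLC6A6 and SLC6A15 had no entry in the promoter table.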

How the data were processed

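Per the labels' protocols, RNA was extracted with TRIzol, poly(A)-selected and made into libraries with a directional kit. The authors deposited whole-number read counts per gene, 1 table per library. The submitters' processing notes name TopHat, Bowtie2, HTSeq 0.6.0, DESeq2 and the build hg19, with no role or order. The strand setting and the treatment of reads with several alignments are not given in the sources used here. The 5 summary lines of each table were left out of library sizes. Reads on no gene were 33.6% to 37.0% of the table total in Panc1 and 57.6% to 60.2% in A549.

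From these counts, edgeR 4.0.16 (R 4.3.3, limma 3.58.1) fitted quasi-likelihood models after filterByExpr and TMM scaling, on group means within each line (13218 genes in Panc1, 14124 in A549) and over both lines (15058 genes). Residual degrees of freedom were 8, 4 and 12, and the biological coefficient of variation was 0.067 in each line. Alternatives were DESeq2 1.42.0, its size factors in edgeR, no filter, only the groups compared, a replicate block and leaving out each library. Their outcomes are given for transporters only, not for genes of the related lists. Standard errors and 95% intervals are Wald values from the quasi-likelihood fit. The fits were also run on simulated counts drawn independently for each library. Those counts hold no outlier libraries, and the outcome is not reported here. Exon lengths came from GENCODE v29 (GRCh38), in which 59 of 59 transporters matched. Eligible for naming were 11 core transporters in every comparison and other transporters where called. So were up to 4 called genes of each related list with the largest changes. Not every eligible value is given in the text. ATF4 was added after its values were seen. The transporters and lists were chosen with earlier results of these data known. A few genes of the transporter set and related lists are counted but not reported by name here.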

Additional observations from a re-analysis of the deposited data

Results flagged for a closer look

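The interaction was called for SLC6A6 in Panc1 (-0.36 on the log2 scale) and in A549 (-0.61), and for SLC7A1 in Panc1 (0.32). Each of these lost its call when 1 library was left out. The TGFβ group's label names no siRNA, so a difference in control transfection cannot be told apart from an interaction. In A549, KLF10 RNA was not lowered in the siKLF10 libraries without TGFβ.

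The TGFβ response differed between lines, Panc1 minus A549 on the log2 scale, for 12 of the 25 transporters tested in both. It was more positive in Panc1 for SLC7A2 (1.40), SLC7A11 (1.15), SLC3A1 (1.13), SLC38A2 (0.73), SLC38A6 (0.60) and SLC7A6 (0.29). It was more positive in A549 for SLC6A17 (-4.05), SLC7A5 (-1.12), SLC7A1 (-1.02), SLC6A9 (-0.81), SLC36A1 (-0.78) and SLC6A8 (-0.60). Calls were lost for SLC7A6 without Panc1 siCont A or B, Panc1 TGFβ A, B or C, A549 siCont A or A549 TGFβ B, with DESeq2 or its size factors, or with no filter (adjusted p up to 0.331). They were lost for SLC38A6 without Panc1 siCont B or C, Panc1 TGFβ B or C, A549 siCont A or A549 TGFβ B, with DESeq2 or with no filter (up to 0.339), for SLC6A8 without A549 siCont B or TGFβ B (up to 0.0828), and for SLC6A9 without A549 siCont B (0.0542).

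The siKLF10 effect without TGFβ differed between lines for 9 transporters. It was more positive in Panc1 for SLC1A4 (0.64) and SLC7A2 (0.49), and more positive in A549 for SLC6A8 (-1.02), SLC1A5 (-0.62), SLC7A11 (-0.57), SLC6A6 (-0.54), SLC7A1 (-0.52), SLC38A2 (-0.36) and SLC38A1 (-0.34). Calls were lost for SLC38A1 when any library of the 2 groups compared in either line was left out, other than Panc1 siCont B and siKLF10 B (adjusted p up to 0.169). They were lost for SLC38A2 without Panc1 siCont A, A549 siCont B or A549 siKLF10 A or B (up to 0.212), for SLC7A2 without Panc1 siCont C, Panc1 siKLF10 B or C, A549 siCont A or A549 siKLF10 A or B (up to 0.0792), and for SLC1A4 without A549 siCont A or siKLF10 B (up to 0.103).

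With TGFβ the siKLF10 effect was more positive in Panc1 for SLC1A4 (0.63) and SLC7A2 (0.44). It was more positive in A549 for SLC6A9 (-0.87), SLC6A17 (-0.81), SLC7A11 (-0.73), SLC6A15 (-0.65), SLC6A8 (-0.63), SLC7A1 (-0.42), SLC1A5 (-0.36), SLC6A6 (-0.35) and SLC38A2 (-0.32). Calls were lost for SLC38A2 with DESeq2 or its size factors or without Panc1 TGFβ A or C, Panc1 siKLF10+TGFβ A or B or any A549 library of the 2 groups (adjusted p up to 0.171). They were lost for SLC1A5 without Panc1 TGFβ B, Panc1 siKLF10+TGFβ B or C or any A549 library of the 2 groups (up to 0.110), and for SLC7A2 without Panc1 TGFβ A or C, Panc1 siKLF10+TGFβ B or C, A549 TGFβ A or A549 siKLF10+TGFβ A (up to 0.2401). They were also lost for SLC6A6 without Panc1 TGFβ A, A549 TGFβ B or A549 siKLF10+TGFβ A (up to 0.202), for SLC6A15 without Panc1 TGFβ B or Panc1 siKLF10+TGFβ A (up to 0.0633), for SLC1A4 without A549 TGFβ A or A549 siKLF10+TGFβ B (up to 0.0676), and for SLC6A8 without A549 TGFβ A (0.111). KLF10 RNA was not lowered in the A549 libraries labelled siKLF10 without TGFβ, and its part in these differences was not tested.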

How the results depend on the processing

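Of 155 calls on transporters, 53 were lost under at least 1 alternative, all 53 of them when 1 library was left out, 23 by another tool, scaling or filter or on only the groups compared, and 5 with a replicate block, and 0 changed direction. Leaving out 1 library gave 7 to 12 calls for TGFβ and 8 to 11 for siKLF10 in Panc1, 9 to 15 for siKLF10+TGFβ against TGFβ in A549, 0 to 3 for the interaction in each line, and 5 to 9 and 6 to 11 for the line difference of the siKLF10 effect without and with TGFβ. On only the groups compared, 6 were lost: in Panc1 siKLF10 SLC1A3 (adjusted p = 0.166) and SLC6A17 (0.0587), in Panc1 siKLF10+TGFβ SLC38A4 (0.0518 against TGFβ) and SLC3A2 (0.0512 against siKLF10), and in A549 siKLF10+TGFβ SLC6A17 (0.0763 against TGFβ) and SLC1A1 (0.0564 against siKLF10). With no filter the A549 interaction had 3 calls. Signs turned only for values that were not called: leaving out 1 library moved SLC38A2 in Panc1 siKLF10 from -0.0154 to 0.118, SLC6A8 in A549 siKLF10 from -0.0213 to 0.637, SLC38A1 in A549 TGFβ from -0.0207 to 0.0944 and within siKLF10 from -0.183 to 0.0164, and SLC3A2 in the same 2 comparisons from -0.0116 to 0.0175 and from -0.194 to 0.116. SLC3A2 in A549 TGFβ was 0.009 with DESeq2 or its size factors and 0.0011 on only the groups compared. The TGFβ response of SLC1A3 in Panc1, not called, ran from -1.38 to 0.085. The cause of these changes was not tested. Deviations from the group mean were correlated between same-letter libraries. Over 0.1 were 2 of 18 correlations in Panc1 (highest 0.454) and 4 of 12 in A549 (highest 0.171). With 2 libraries a group, the A549 values for A and B are the same numbers repeated. Whether letters are pairs cannot be decided from these values, and the main model did not pair them. With the letter as replicate block the counts were 10, 10, 14, 13 and 2 in Panc1, 22, 11, 15, 23 and 1 in A549, and 15, 9 and 11 between lines. The calls lost with that replicate block were SLC7A10 with TGFβ, SLC7A2, SLC36A1 and SLC38A7 with siKLF10, and SLC38A4 with siKLF10+TGFβ against TGFβ, all in Panc1. Depth limits transporters under 0.162 to 0.445 CPM, and 2 libraries a group limit A549.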
